A study of Mus musculus with 6 samples.

Results

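Collagens are the main structural proteins of the extracellular matrix, and their genes were compared between young and old mice in the basal part of the cochlea. The members are the rows of the expression tables whose symbol has the form of Col, a number, a and a number, which gave 44 genes of 34395. RNA-seq of total RNA had been done on 6 libraries of the mouse strain C57BL/6J, 3 labelled young (young 1, 2 and 3) and 3 labelled old (old 1, 2 and 3), with no other treatment named. C57BL/6J is an inbred strain known for early hearing loss, and the series title names age-related hearing loss and the noncoding RNA Mirg with Foxp1. The labels give neither ages nor sex and do not say that the libraries are from different animals, so each p-value measures the spread among these 6 libraries and nothing wider.

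Each collagen molecule is a triple helix of chains from one or several genes, with glycine at regular positions along each chain. Fibrillar collagens (types I, II, III, V, XI, XXIV and XXVII) build fibrils, basement membrane collagens form sheets under epithelia, vessels and Schwann cells, and FACIT collagens sit on the surface of fibrils. In the cochlea, type II, IX and XI chains are known components of the tectorial membrane, the sheet over the hair cells, and of cartilage. Type I belongs to bone and connective tissue, and type IV lines the vessels of the stria vascularis and the spiral limbus. Mutations in chains of types II, IV, IX and XI are known causes of hereditary hearing loss.

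Gene counts per library ran from 37084017 to 39433584 in young and from 26245416 to 26839068 in old libraries. The groups differed in sex-linked RNA: the X inactivation RNA Xist had 12613 to 18384 counts in young and 0 to 9 in old libraries, and the Y-linked helicase gene Ddx3y had 0 counts in each young and 868 to 1107 in old libraries, so age and sex-linked profile cannot be told apart. All 7 hair cell and all 8 strial marker genes looked at passed the filter on low counts. In bulk RNA fewer cells of a type and less RNA per cell cannot be told apart, which holds for each difference below.

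Of all gene counts, collagen genes held 0.293% ± 0.0246 in the young group and 0.240% ± 0.0248 in the old group (± SD over 3 libraries). As a share of summed FPKM the order was the other way, with 0.0385% ± 0.0114 in young and 0.0700% ± 0.00534 in old libraries. That share also depends on the FPKM of all other genes. Col11a2, at a mean of 153 and 156 FPKM, made up 26.6% ± 0.981 of the summed collagen FPKM in young and 32.15% ± 1.77 in old libraries. The mean summed FPKM of the collagen genes was thus not higher in old libraries. Levels of different genes were compared as FPKM, the fragment count scaled by gene length and library total, as deposited by the authors. The α2 chain of type XI, Col11a2 (gene 12815, chromosome 17, 34038919 to 34066684, GRCm38.p6), stood first in both groups with 153 ± 15.8 FPKM in young and 156 ± 24.1 in old libraries. Next in the young libraries came Col1a2, a chain of type I, with 73.2 ± 9.90, then Col9a2, a chain of type IX, with 57.1 ± 1.47, and Col2a1, the chain of type II, with 44.7 ± 7.70 FPKM. In the old libraries the order behind Col11a2 was Col27a1 with 45.2 ± 4.65, Col9a2 with 35.3 ± 4.60 and Col9a3 with 31.7 ± 3.64 FPKM. The SD ranges of Col9a2 and Col9a3 overlap in the old libraries, whereas those of Col9a2 and Col2a1 do not in the young libraries. Col11a2 alone took 32.3% ± 1.24 of all collagen counts in young and 38.9% ± 1.61 in old libraries. Col27a1 took 3.07% ± 0.269 and 9.39% ± 0.771, and Col1a2 took 12.3% ± 0.652 and 4.55% ± 0.217. At the other end, Col6a4, Col6a5, Col10a1 and Col17a1 had between 0 and 5 counts in each library and were left untested for low counts. Col10a1 is a gene of hypertrophic cartilage and Col17a1 one of epithelial hemidesmosomes.

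**Figure D1:**
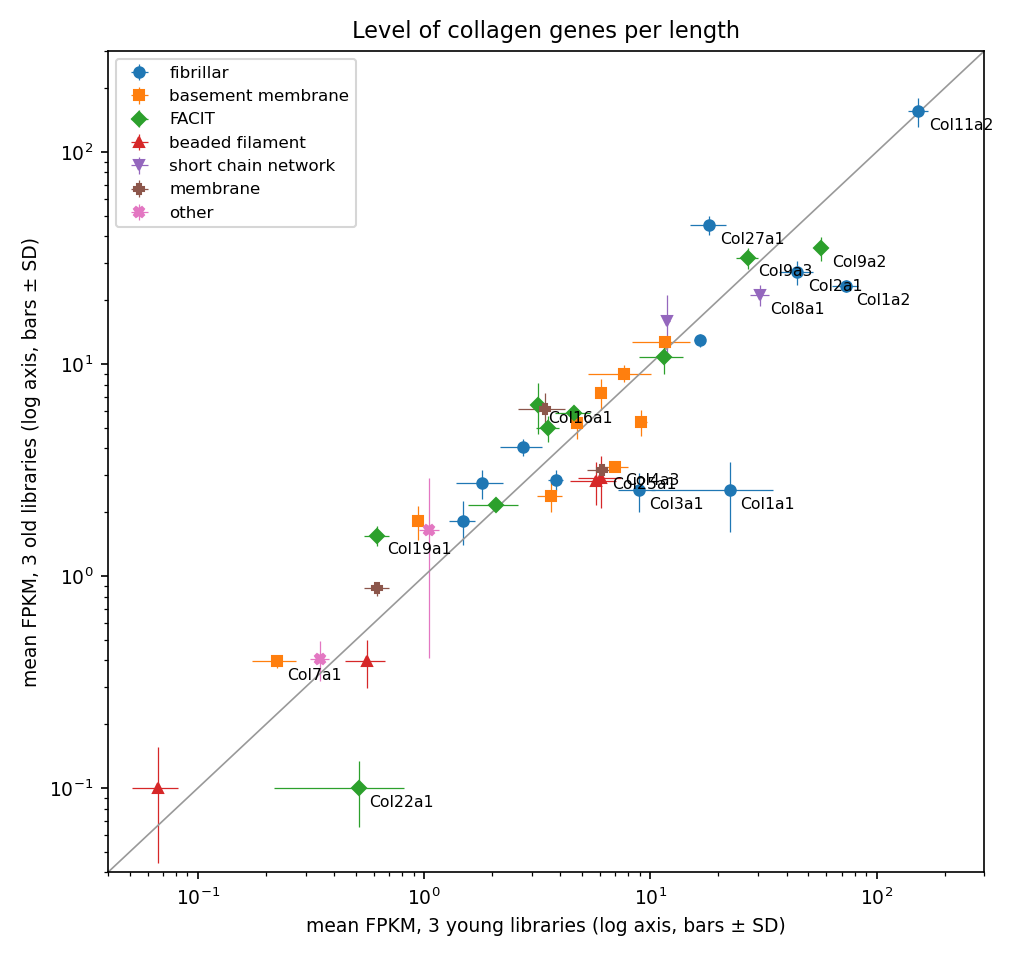
Mean FPKM of the 40 collagen genes with at least 0.05 FPKM in each group, young libraries on the x axis and old on the y axis, both log axes, bars ± SD over 3 libraries, symbols by class, the line marking equal levels. Col11a2 lies on the line at 153 and 156 FPKM, Col1a1 lies farthest below it among genes above 1 FPKM, and Col27a1 lies above it.

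Differences between the groups were tested with edgeR on counts with TMM scaling, across 20157 genes, and a gene counts as higher or lower in old libraries at a Benjamini-Hochberg adjusted p under 0.05. Of the 40 collagen genes that passed the filter, 18 fell, 7 rose and 15 did not pass the test. Together 62.5% of them were called, against 54.2% of all genes tested (5427 higher, 5496 lower) and 54.4% of protein-coding genes. Lower were 45% of the collagen genes, against 27.3% of all genes and 34.7% of protein-coding genes, and higher were 17.5%, against 26.9% of all genes and 19.7% of coding genes. A fall of at least 2-fold was called for 10 collagen genes, or 25%, against 6.15% of all genes. A rise of at least 2-fold was called for 1 of 40, against 11.2%. The groups did not overlap for 25 of the 40 genes, 62.5%, against 62.3% of all genes. The median log2 fold change, old minus young, was -0.28 over the collagen genes, 0.01 over all genes and -0.13 over coding genes. With library totals alone in place of TMM all log2 fold changes moved up by 0.274 at the median. The falls of Col2a1 (-0.75), Col4a4 (-0.87) and Col25a1 (-0.98) were then under 2-fold. Shares of 2-fold changes were not computed for coding genes or for library totals alone. Then 16 collagen genes fell and 9 rose, against 55.5% of all genes called, 14.5% lower and 41% higher among all genes (2920 and 8259 genes). The collagen median was then -0.01, against 0.29 over all genes, and on log2(FPKM + 1) it was 0.06, against 0.19. The number of collagen genes that rose was 8 without young 1, 3 without young 2, 4 without young 3, 4 without old 1, 4 without old 2 and 5 without old 3. Of all genes, 25.9% rose without young 1, 19.2% without young 2, 20.9% without young 3, 23.5% without old 1, 22.3% without old 2 and 23% without old 3.

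**Figure D2:**
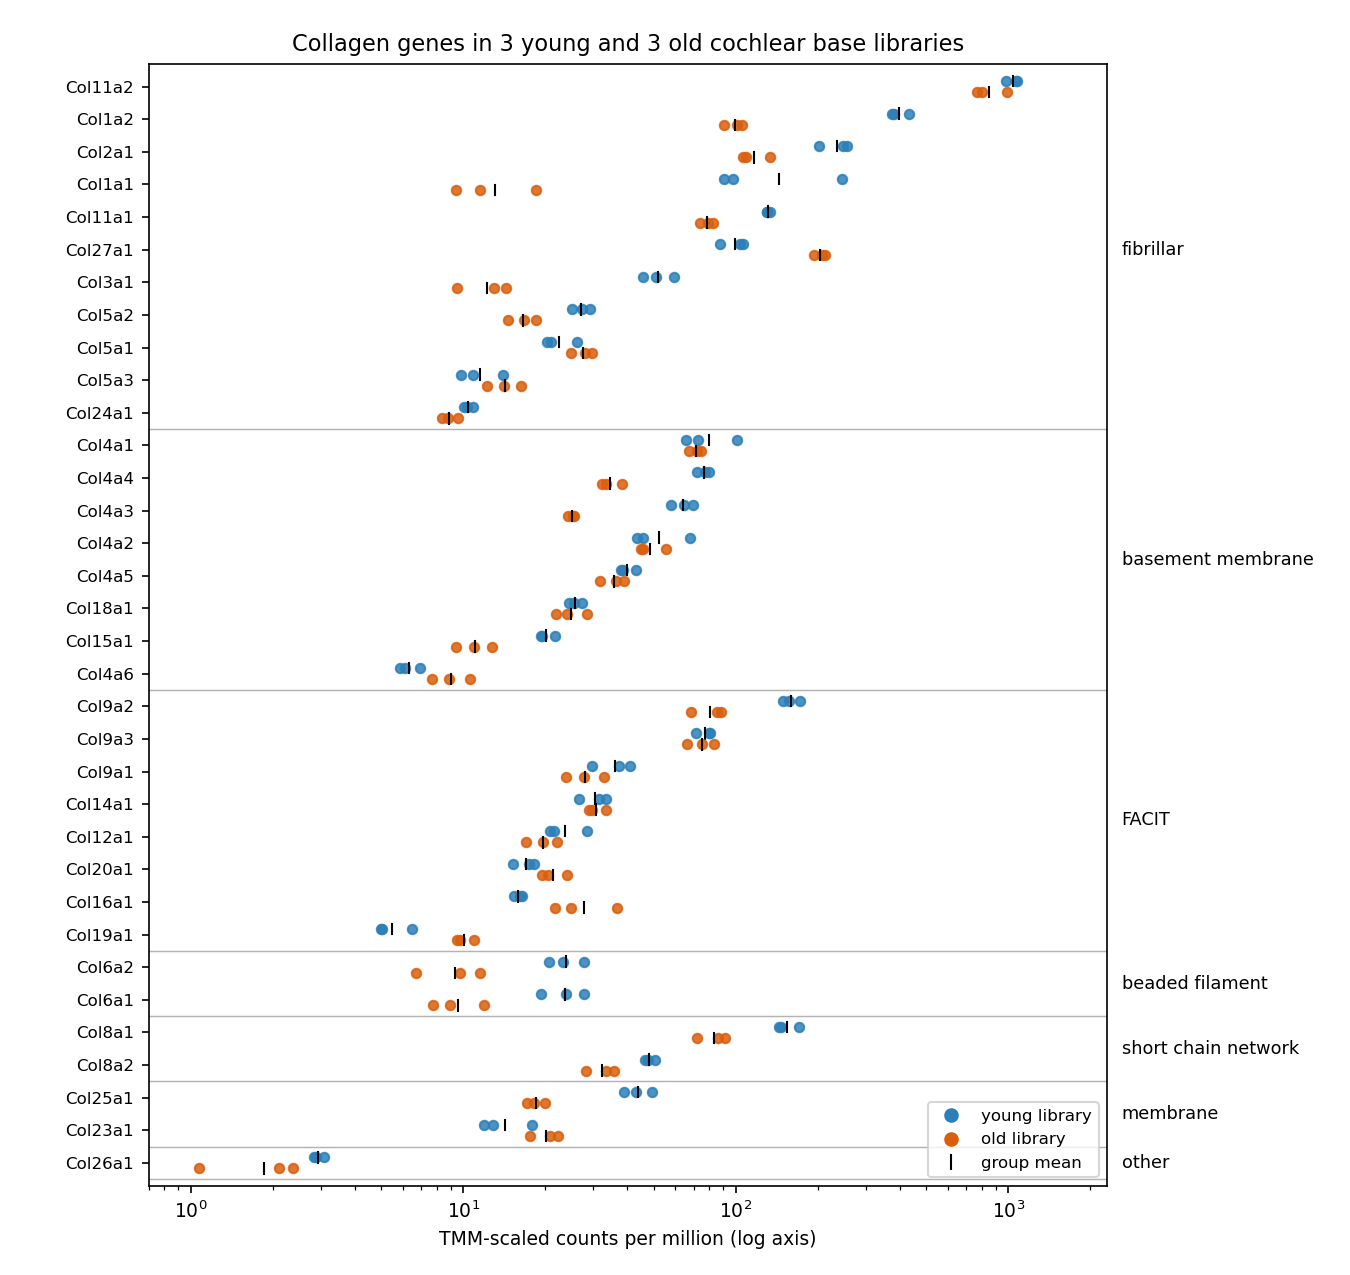
TMM-scaled CPM (log axis) of the collagen genes with a mean of at least 1 FPKM in either group, by class, each point 1 library and each tick the mean of 3. The groups stand apart for Col1a1, Col1a2 and Col3a1 on the low side of old and for Col27a1 on the high side, and they overlap for Col4a1, Col4a2 and Col9a3.

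Fibrillar genes fell more often than they rose: of 11 tested, 7 fell and 1, Col27a1, rose, with a median log2 fold change of -0.71. That is 63.6% lower, against 27.3% of all genes and 34.7% of protein-coding genes, and 9.09% higher, against 26.9% and 19.7%. With library totals alone 6 fell and 3 rose. The chains of bone and loose connective tissue had the largest falls. Col1a1 (gene 12842, chromosome 11, 94936224 to 94953042), the α1 chain of type I, had 90.2, 97.6 and 244 CPM (counts relative to the TMM-scaled library total) in young 1, 2 and 3 and 9.44, 11.5 and 18.4 CPM in old 1, 2 and 3. All old values lay below all young ones, and young 3 was far above the other young libraries. The log2 fold change was -3.46 ± 0.39 (SE; adjusted p = 9.24e-05), or -2.87 without young 3. Col1a2 (gene 12843, chromosome 6, 4505618 to 4541543), the α2 chain of the same molecule, had 432, 375 and 380 CPM in young 1, 2 and 3 and 101, 106 and 90.6 CPM in old 1, 2 and 3. Here young 3 did not stand out, and the log2 fold change was -2.00 ± 0.09 (adjusted p = 1.97e-06), a 3.99-fold lower mean. Col3a1 (gene 12825, chromosome 1, 45311538 to 45349706), the chain of type III in elastic and vascular tissue, had 59.2, 51.0 and 45.6 CPM in young 1, 2 and 3 and 12.9, 14.4 and 9.52 CPM in old 1, 2 and 3. It fell by 2.08 ± 0.15 on the log2 scale (adjusted p = 1.49e-05), with no overlap of the groups.

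The promoter windows of Col1a2, Col3a1 and Col27a1 are shown because, among the collagen genes called and with a window in the reference set, Col3a1 and Col1a2 had the largest falls and Col27a1 the largest rise. For Col27a1 the start used lies inside the gene, after the first annotated base. Each window runs from 250 bases before to 50 bases after the start used for the gene (RefSeq, GRCm38.p6), on the strand of the gene, 5′ to 3′. Capitals mark TATAAA, the core of the TATA box, and CCAAT, the core of the CCAAT box, on either strand.
Col1a2 (chr6:4505368-4505667, plus strand): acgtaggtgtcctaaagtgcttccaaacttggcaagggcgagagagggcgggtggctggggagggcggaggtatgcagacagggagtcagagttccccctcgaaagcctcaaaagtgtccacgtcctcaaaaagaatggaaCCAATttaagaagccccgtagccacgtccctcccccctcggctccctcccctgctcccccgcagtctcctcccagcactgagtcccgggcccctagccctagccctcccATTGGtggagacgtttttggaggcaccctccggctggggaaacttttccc
Col3a1 (chr1:45311288-45311587, plus strand): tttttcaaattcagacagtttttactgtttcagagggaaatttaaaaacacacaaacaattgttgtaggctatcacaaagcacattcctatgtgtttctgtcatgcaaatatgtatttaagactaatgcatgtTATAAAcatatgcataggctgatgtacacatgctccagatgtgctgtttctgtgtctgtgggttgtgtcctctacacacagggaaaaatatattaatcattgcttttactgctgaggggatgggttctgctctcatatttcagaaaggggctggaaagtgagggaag
Col27a1 (chr4:63215162-63215461, plus strand): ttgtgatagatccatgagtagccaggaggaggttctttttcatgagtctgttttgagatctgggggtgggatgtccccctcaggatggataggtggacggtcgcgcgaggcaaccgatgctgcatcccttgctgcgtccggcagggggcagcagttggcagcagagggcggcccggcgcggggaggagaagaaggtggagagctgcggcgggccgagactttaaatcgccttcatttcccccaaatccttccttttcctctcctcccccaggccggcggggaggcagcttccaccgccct
Col3a1 held TATAAA once, 117 bases before its start, Col1a2 held CCAAT once on each strand, and the window of Col27a1 held neither. Windows were found for 35 members, 38 windows in all, and there were none for Col1a1, Col2a1, Col4a3, Col5a2, Col9a3, Col12a1, Col14a1, Col22a1 and Col26a1. TATAAA was in 5 of the 38 windows, 13.2%, against 13.6% of all 32851 windows, and CCAAT was in 34.2% against 37.4%. GGGCGG, the core of the GC box, was in 60.5% against 35.7%, and GGGAGG, a further G-rich core, was in 76.3% against 42.4%, each searched on both strands. The all-gene set also holds noncoding genes. The median GC content was 59.8% in collagen windows and 52.7% in all windows. GGGCGG was in 9 of 14 windows of genes that fell and in 5 of 7 windows of genes that rose. TGTGGT, the core bound by Runt factors, was in 7.89% of collagen windows against 16.8%, and TGANTCA, the AP-1 core, in 2.63% against 7.81%.

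The cartilage and tectorial membrane chains of types II and XI fell to different degrees. Col2a1 (gene 12824, chromosome 15, 97975602 to 98004724) had 256, 248 and 201 CPM in young 1, 2 and 3 and 109, 133 and 107 CPM in old 1, 2 and 3. The groups did not overlap, and the log2 fold change was -1.01 ± 0.12 (adjusted p = 9.02e-05). Col11a1, the α1 chain of type XI, went from 131 ± 1.60 to 78.5 ± 4.09 CPM (SD, n = 3; log2 fold change -0.74 ± 0.07, adjusted p = 4.63e-05). Col11a2 had 1071, 1070 and 978 CPM in young 1, 2 and 3 and 800, 985 and 770 CPM in old 1, 2 and 3. Old 2 lay above young 3, so the groups overlapped, and the log2 fold change was -0.29 ± 0.10 (adjusted p = 0.0375). This call was lost with library totals alone (-0.01, adjusted p = 0.921), without young 2 (-0.28, adjusted p = 0.0963), without old 1 (-0.25, adjusted p = 0.119) and without old 3 (-0.23, adjusted p = 0.139). It was also lost with upper-quartile scaling (-0.21, adjusted p = 0.12), TMM factors from coding genes (-0.16, adjusted p = 0.2275) and a mean count of at least 50 (-0.24, adjusted p = 0.0801). The value was 0.02 on log2(FPKM + 1).

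The remaining fibrillar genes moved in both directions. Col27a1 (gene 373864, chromosome 4, 63214009 to 63334991), a chain of thin fibrils in cartilage, had 103, 106 and 87.7 CPM in young 1, 2 and 3 and 193, 212 and 207 CPM in old 1, 2 and 3. Every old value was above every young one, and the rise of 1.04 ± 0.09 on the log2 scale (adjusted p = 2.49e-05) was the only rise of at least 2-fold among the collagen genes. The chains of type V, which nucleate type I fibrils, did not move alike. Col5a2 fell from 27.1 ± 2.04 to 16.6 ± 1.99 CPM (-0.71 ± 0.12, adjusted p = 0.000671). Col5a1 had 22.5 ± 3.19 and 27.5 ± 2.41 CPM (0.29 ± 0.12, adjusted p = 0.0676) and Col5a3 had 11.5 ± 2.16 and 14.2 ± 2.06 CPM (0.30 ± 0.16, adjusted p = 0.138). Neither passed with TMM, and both did with library totals alone (0.56 and 0.57; adjusted p = 0.00855 and 0.0251) and without young 1 (adjusted p = 0.0117 and 0.0303). Col24a1, a fibrillar chain of developing bone and cornea, had 10.4 ± 0.395 and 8.88 ± 0.624 CPM and did not pass (adjusted p = 0.139).

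**Figure D3:**
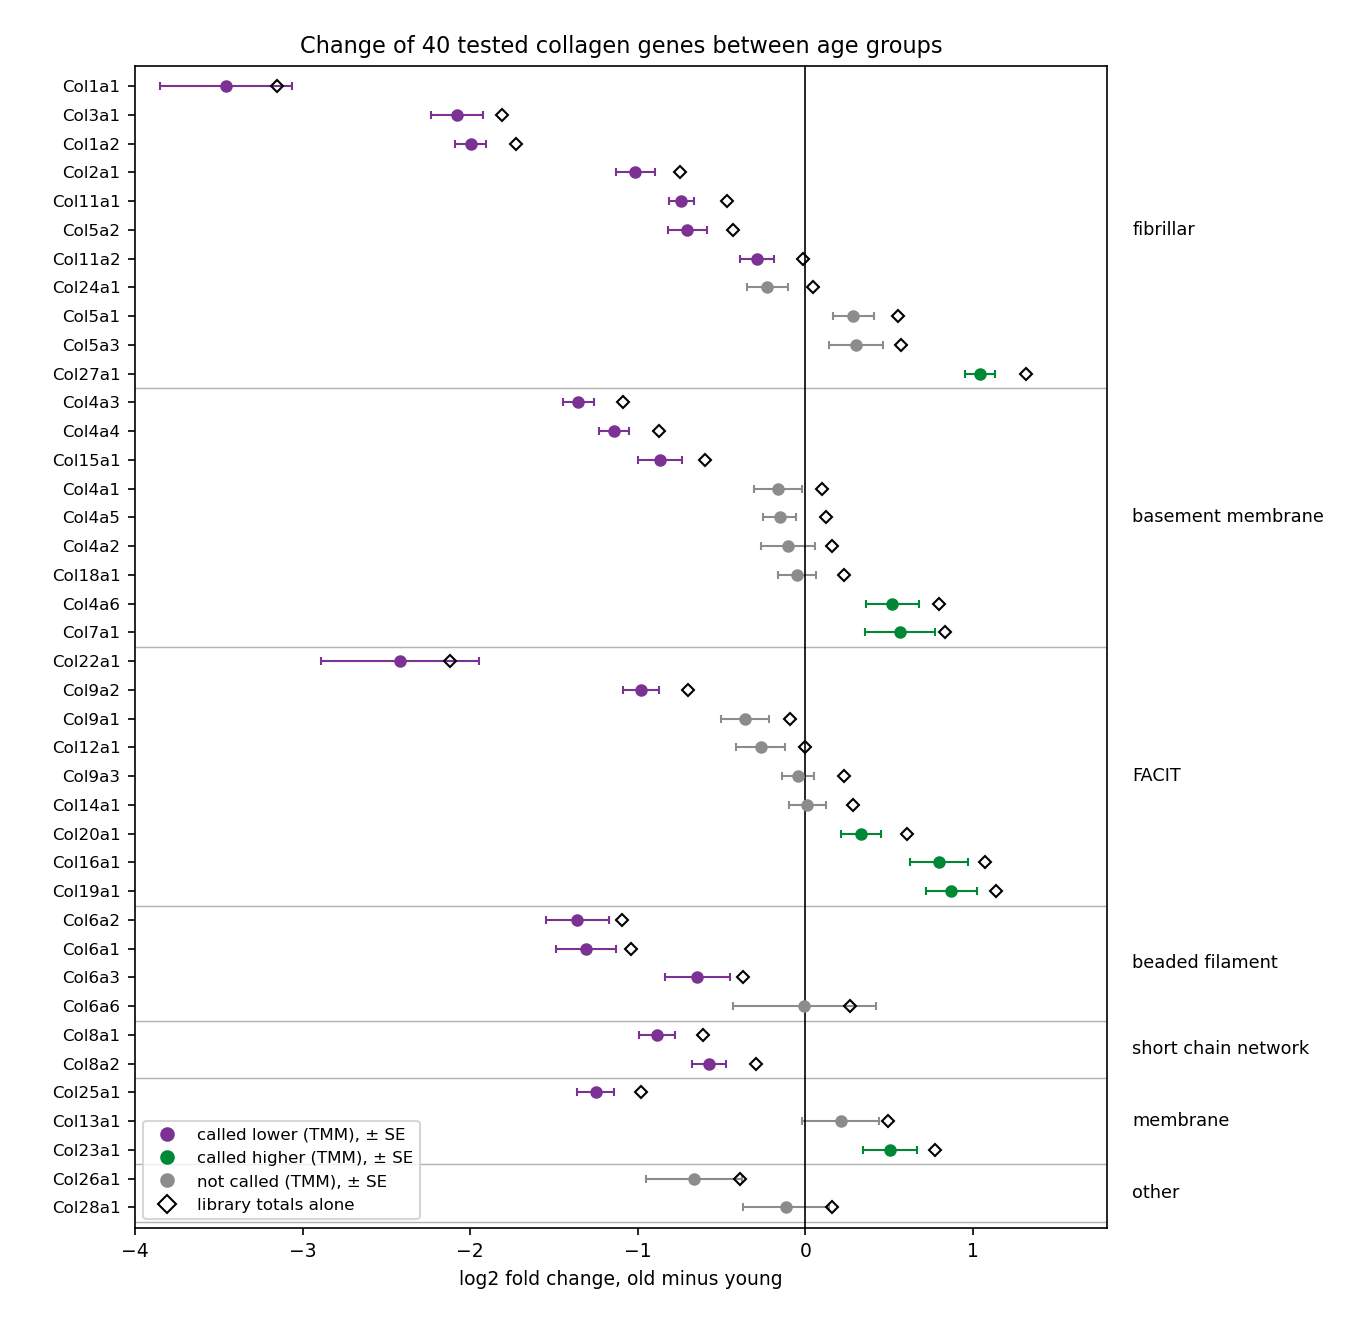
Log2 fold change, old minus young, of the 40 tested collagen genes by class; circles are edgeR estimates with TMM scaling and bars their SE, coloured by the call, and open diamonds are the estimates with library totals alone. The circles run from -3.46 for Col1a1 to 1.04 for Col27a1, and the diamonds lie to the right of the circles throughout.

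Of 9 basement membrane genes 3 fell, 2 rose and 4 did not pass, with a median log2 fold change of -0.15. The called share of 55.6% was near the 54.2% of all genes. With library totals alone the counts were also 3 and 2 while the median was 0.12. The α3 and α4 chains of type IV, known from kidney and cochlear basement membranes and mutated in Alport syndrome, were those with the largest falls. Col4a3 (gene 12828, chromosome 1, 82586921 to 82722059) had 69.4, 64.7 and 57.6 CPM in young 1, 2 and 3 and 25.5, 25.2 and 24.3 CPM in old 1, 2 and 3. The old values lay close together and far below the young ones (log2 fold change -1.35 ± 0.09, adjusted p = 1.18e-05). Col4a4 (gene 12829, chromosome 1, 82448419 to 82587034), its partner, had 77.0, 79.7 and 72.3 CPM in young 1, 2 and 3 and 38.1, 33.2 and 32.3 CPM in old 1, 2 and 3. It fell by 1.14 ± 0.09 on the log2 scale (adjusted p = 1.83e-05), again without overlap.

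The general α1 and α2 chains of type IV, present in all basement membranes, gave no call. Col4a1 (gene 12826, chromosome 8, 11198423 to 11312889) had 79.8 ± 18.9 CPM in young and 71.3 ± 3.44 in old libraries, with 101 CPM in young 1 but 65.4 and 72.8 in young 2 and 3. Its log2 fold change was -0.16 ± 0.14 (adjusted p = 0.351), or 0.10 with library totals alone and 0.02 without young 1. Col4a2 (gene 12827, chromosome 8, 11312805 to 11449287) had 52.3 ± 13.4 and 48.6 ± 5.75 CPM, with young 1 again highest at 67.7, and a log2 fold change of -0.10 ± 0.16 (adjusted p = 0.602), or 0.16 with library totals alone and 0.10 without young 1. The X-linked Col4a5, the third chain of the Alport network, had 39.8 ± 2.79 and 35.7 ± 3.61 CPM (-0.15 ± 0.10, adjusted p = 0.215), or 0.12 with library totals alone. The X-linked Col4a6 rose from 6.30 ± 0.572 to 9.03 ± 1.43 CPM (0.52 ± 0.16, adjusted p = 0.0177). It missed the threshold without young 1 (adjusted p = 0.0517), without young 2 (adjusted p = 0.0685) and without old 2 (adjusted p = 0.0796). The sex-linked RNAs moved with the groups, and their part in the values of these X-linked genes was not tested.

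The type IV genes lie in pairs that start next to each other on opposite strands. In the GENCODE annotation of GRCm38 the starts of Col4a1 and Col4a2 are 21 bases apart and those of Col4a3 and Col4a4 are 72 bases apart, while those of Col4a5 and Col4a6 are 1309 bases apart. The windows of Col4a1 and Col4a2 are shown because the windows of this pair overlap, and capitals mark the 78 bases that they share, read from opposite strands. For Col4a1, as for Col27a1, the start used lies inside the RefSeq gene, after its first annotated base, and the shared stretch depends on that start.
Col4a1 (chr8:11312777-11313076, minus strand): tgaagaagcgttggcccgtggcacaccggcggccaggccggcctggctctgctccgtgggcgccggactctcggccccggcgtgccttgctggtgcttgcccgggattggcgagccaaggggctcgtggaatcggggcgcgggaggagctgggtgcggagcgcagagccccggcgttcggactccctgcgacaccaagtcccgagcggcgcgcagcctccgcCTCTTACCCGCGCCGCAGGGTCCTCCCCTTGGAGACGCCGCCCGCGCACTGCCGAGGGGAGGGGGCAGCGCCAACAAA
Col4a2 (chr8:11312555-11312854, plus strand): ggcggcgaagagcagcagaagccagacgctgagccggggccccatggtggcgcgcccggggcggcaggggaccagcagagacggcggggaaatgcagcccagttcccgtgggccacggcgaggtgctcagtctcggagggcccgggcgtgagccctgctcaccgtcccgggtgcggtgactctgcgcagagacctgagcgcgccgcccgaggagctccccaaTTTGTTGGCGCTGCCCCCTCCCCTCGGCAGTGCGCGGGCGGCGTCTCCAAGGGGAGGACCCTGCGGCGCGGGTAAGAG
The count ratio of Col4a2 to Col4a1 within a library was -0.62 ± 0.05 on the log2 scale in young and -0.56 ± 0.12 in old libraries, and the groups overlapped. The ratio of Col4a4 to Col4a3 was 0.26 ± 0.10 in young and 0.46 ± 0.10 in old libraries, without overlap. The ratio of Col4a3 to Col4a1, which set one pair against the other, went from -0.30 ± 0.27 to -1.51 ± 0.09.

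Other genes of the basement membrane zone were split as well. Col15a1, a chain of vascular and muscle basement membranes, had 19.3 to 21.7 CPM in young and 9.38 to 12.7 CPM in old libraries and fell (-0.87 ± 0.13, adjusted p = 0.000428). Col18a1, the source of endostatin, had 25.7 ± 1.41 and 24.8 ± 3.28 CPM (-0.05 ± 0.11, adjusted p = 0.738), or 0.23 with library totals alone and 0.03 without old 3. Col7a1, the chain of anchoring fibrils, stayed under 1 FPKM and rose (0.56 ± 0.21, adjusted p = 0.0434), a call lost without each library but young 1, with adjusted p-values from 0.0677 without old 2 to 0.158 without young 2.

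Of 9 FACIT genes 3 rose, 2 fell and 4 did not pass, with a median log2 fold change of -0.04. The called share of 55.6% was near the 54.2% of all genes. With library totals alone the counts were the same and the median was 0.23. The 3 chains of type IX, which coat type II fibrils and assemble into one molecule, differed. Col9a2 had 149, 157 and 172 CPM in young 1, 2 and 3 and 88.4, 85.2 and 68.4 CPM in old 1, 2 and 3. The groups were well apart, and the log2 fold change was -0.98 ± 0.11 (adjusted p = 6.89e-05). Col9a3 had 80.3, 79.9 and 71.4 CPM in young 1, 2 and 3 and 75.4, 83.0 and 66.2 CPM in old 1, 2 and 3. These values interleave, with a log2 fold change of -0.04 ± 0.10 (adjusted p = 0.721), or 0.23 with library totals alone and 0.03 without old 3. Col9a1 had 36.0 ± 5.84 and 28.1 ± 4.53 CPM (-0.36 ± 0.14, adjusted p = 0.0562), and it passed without young 3 (adjusted p = 0.0109), without old 2 (adjusted p = 0.0291), with no filter (adjusted p = 0.018) and with DESeq2 (adjusted p = 0.0275).

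Among the FACIT genes that rose were less abundant ones. Col16a1, found on microfibrils and cartilage fibrils, went from 15.9 ± 0.576 to 27.7 ± 7.87 CPM (0.80 ± 0.17, adjusted p = 0.00324), with old 2 highest at 36.6. Col19a1, a chain known from muscle development and from neurons, went from 5.50 ± 0.842 to 10.1 ± 0.787 CPM (0.87 ± 0.15, adjusted p = 0.000958). Col20a1 rose from 16.9 ± 1.53 to 21.3 ± 2.38 CPM (0.33 ± 0.12, adjusted p = 0.037), a call lost without young 2 (adjusted p = 0.173), young 3 (adjusted p = 0.0702), old 1 (adjusted p = 0.154) or old 3 (adjusted p = 0.0629). Col12a1 and Col14a1, which bind type I fibrils in dense connective tissue, did not pass. Col12a1 had 23.5 ± 4.23 CPM in young and 19.6 ± 2.61 in old libraries (adjusted p = 0.145), and Col14a1 had 30.5 ± 3.59 and 30.7 ± 2.44 CPM (adjusted p = 0.934). Col22a1, a chain of tissue junctions, stayed under 1 FPKM. It had 2.49, 2.02 and 6.12 CPM in young 1, 2 and 3 and 0.378, 0.872 and 0.727 CPM in old 1, 2 and 3, a fall of 2.42 ± 0.47 on the log2 scale (adjusted p = 0.0018). Young 3 was the highest library, as for Col1a1, and the value without it was -1.79.

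Of 4 tested beaded filament genes, the type VI chains that form microfibrils around cells, 3 fell and none rose, or 2 with library totals alone. With TMM scaling that is 75% lower, against 27.3% of all genes and 34.7% of protein-coding genes. Col6a1 (gene 12833, chromosome 10, 76708792 to 76726044) had 27.6, 23.8 and 19.3 CPM in young 1, 2 and 3 and 7.76, 8.93 and 11.9 CPM in old 1, 2 and 3 (log2 fold change -1.31 ± 0.18, adjusted p = 0.000239). Col6a2 (gene 12834, chromosome 10, 76595756 to 76623630) had 27.8, 23.2 and 20.6 CPM in young 1, 2 and 3 and 6.70, 11.5 and 9.69 CPM in old 1, 2 and 3 (-1.36 ± 0.19, adjusted p = 0.00026). Every old library lay below every young one for both genes. Col6a3, the third chain of the common trimer, stayed under 1 FPKM and fell by 0.64 ± 0.19 on the log2 scale (adjusted p = 0.017), but not with library totals alone (-0.37; adjusted p = 0.142). Col6a6 did not pass (adjusted p = 0.992).

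The short chain genes Col8a1 and Col8a2, whose products form hexagonal lattices beneath endothelium, fell in counts. Col8a1 had 144, 171 and 146 CPM in young 1, 2 and 3 and 86.0, 91.6 and 72.2 CPM in old 1, 2 and 3, without overlap (log2 fold change -0.88 ± 0.11, adjusted p = 0.000119). Col8a2 went from 48.2 ± 2.02 to 32.4 ± 3.89 CPM (-0.57 ± 0.10, adjusted p = 0.00103), whereas on log2(FPKM + 1) its value was 0.35 (adjusted p = 0.2). The gene length implied by its counts and FPKM was 3569 bases in old 1 but 2201 in old 2 and 1568 in old 3, against 3519 to 3801 in young libraries, and the part of these lengths in the direction of Col8a2 was not tested. Col26a1, of no class, likewise had implied lengths of 2436 to 2597 bases in young and of 875, 1514 and 2580 bases in old 1, 2 and 3. Its 2.94 ± 0.137 and 1.85 ± 0.687 CPM did not pass (-0.66 ± 0.29, adjusted p = 0.0734), but it did without old 1 (-0.89; adjusted p = 0.0429) and with limma-voom (-0.73; adjusted p = 0.0481), and the value on log2(FPKM + 1) was 0.25. Col28a1 did not pass either (adjusted p = 0.723).

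The membrane-spanning genes went both ways. Col25a1, a transmembrane chain of neurons and developing muscle, had 43.2, 49.4 and 38.9 CPM in young 1, 2 and 3 and 19.9, 18.2 and 17.2 CPM in old 1, 2 and 3. The groups stood well apart, with a fall of 1.25 ± 0.11 on the log2 scale (adjusted p = 2.74e-05). Col23a1 rose from 14.2 ± 3.17 to 20.2 ± 2.41 CPM (0.51 ± 0.16, adjusted p = 0.0226), with young 1 above old 3. That call was lost without young 2 (adjusted p = 0.0992), young 3 (adjusted p = 0.0743), old 1 (adjusted p = 0.0692) or old 2 (adjusted p = 0.0921). Col13a1, a chain of the neuromuscular junction, did not pass (0.21 ± 0.23, adjusted p = 0.459).

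Count ratios of 2 genes within one library do not depend on the scaling between libraries, and 15 such ratios of partner or related chains were computed. The groups did not overlap for 10 of them, each with a two-sided exact permutation p of 0.1, the smallest that 3 against 3 libraries allow. The adjusted p was 0.15 over the 15 ratios. Ratios of other gene pairs were not computed for comparison. For single genes with TMM scaling, the groups did not overlap for 62.3% of all genes tested. Col1a1 to Col1a2, the chains of one type I molecule, had log2 ratios of -2.26, -1.94 and -0.64 in young 1, 2 and 3, while old 1, 2 and 3 had -3.42, -3.20 and -2.30. The highest old value, in old 3, was next to the lowest young one, so the groups were barely apart. Per length, Col1a1 stood at 0.32 ± 0.205 of the FPKM of Col1a2 in young and at 0.11 ± 0.046 in old libraries. The ratio of Col5a1 to Col5a2 went from -0.27 ± 0.23 to 0.73 ± 0.27, and that of Col9a3 to Col9a2 from -1.04 ± 0.20 to -0.10 ± 0.11. The ratio of Col2a1 to Col11a2 went from -2.15 ± 0.11 to -2.87 ± 0.02 and that of Col11a1 to Col11a2 from -2.99 ± 0.07 to -3.43 ± 0.13. The ratio of Col6a2 to Col6a1 was 0.02 ± 0.06 in young and -0.05 ± 0.36 in old libraries, and that of Col3a1 to Col1a2 was -2.93 ± 0.11 and -3.03 ± 0.20. In these 2 pairs the groups overlapped (exact permutation p = 0.9 and 0.6).

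**Figure D4:**
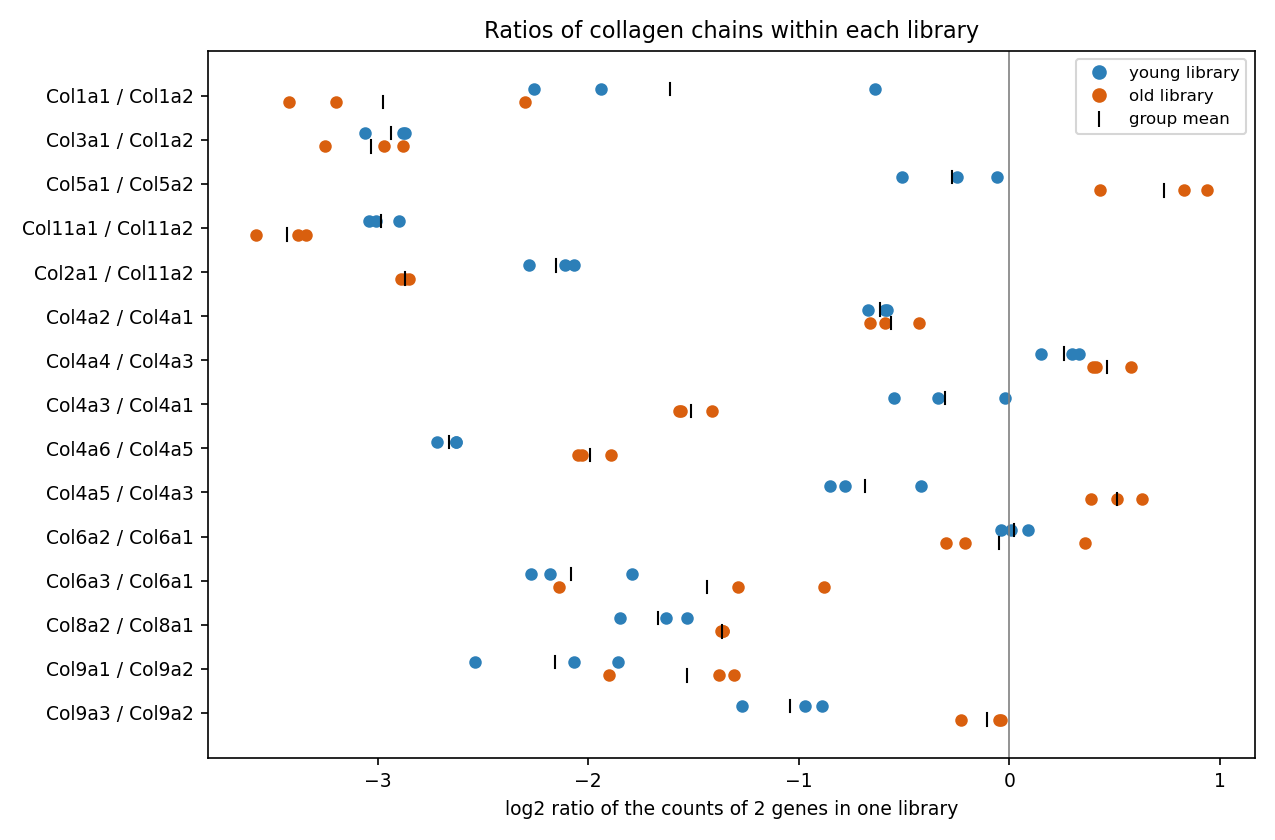
Log2 ratio of the counts of 2 collagen genes in one library (x axis) for 15 pairs, each point 1 library, ticks the mean of 3 per group. Old and young points separate for Col5a1 to Col5a2, Col9a3 to Col9a2 and Col4a3 to Col4a1 and lie together for Col4a2 to Col4a1 and Col3a1 to Col1a2.

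Genes whose products modify and fold collagen chains numbered 22, of which 7 fell and 2 rose, with a median log2 fold change of -0.18. That is 40.9% called, against 54.2% of all genes, and 31.8% lower, against 27.3% of all genes and 34.7% of protein-coding genes. With library totals alone 5 fell and 5 rose. Plod1, a lysyl hydroxylase, fell from 123 ± 6.72 to 50.3 ± 6.11 CPM (-1.29 ± 0.10, adjusted p = 1.57e-05), and Ppib, a prolyl isomerase of the endoplasmic reticulum, from 88.8 ± 12.4 to 36.7 ± 3.77 CPM (-1.27 ± 0.12, adjusted p = 3.4e-05). Serpinh1, which encodes the collagen chaperone HSP47, fell by 0.84 ± 0.23 on the log2 scale (adjusted p = 0.0106, and 0.0539 without old 2). Its groups overlapped, with 133, 173 and 204 CPM in young 1, 2 and 3 and 136, 76.3 and 72.6 CPM in old 1, 2 and 3. On log2(FPKM + 1) it did not pass (-0.59, adjusted p = 0.0578). The 2 that rose were Mia3, needed to export procollagen from the endoplasmic reticulum (0.31 ± 0.07, adjusted p = 0.00484), and the prolyl hydroxylase subunit gene P4ha3 (0.52 ± 0.17, adjusted p = 0.0282). The call of P4ha3 was lost without young 2 (adjusted p = 0.0729), young 3 (adjusted p = 0.113), old 1 (adjusted p = 0.0667) or old 2 (adjusted p = 0.103).

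Of 17 genes of propeptide cleavage, crosslinking and fibril assembly 7 fell and 2 rose (median -0.27), or 6 and 3 with library totals alone. With TMM scaling 52.9% were called, against 54.2% of all genes, and 41.2% were lower, against 27.3% of all genes and 34.7% of protein-coding genes. Lox, the lysyl oxidase that crosslinks collagen and elastin, fell from 179 ± 18.3 to 70.9 ± 13.4 CPM (-1.33 ± 0.13, adjusted p = 4.79e-05). The procollagen binding gene Sparc fell from 1809 ± 175 to 847 ± 117 CPM (-1.09 ± 0.11, adjusted p = 6.11e-05) and the cleavage enhancer gene Pcolce2 from 14.6 ± 0.708 to 5.66 ± 0.541 CPM (-1.36 ± 0.13, adjusted p = 3.63e-05). Loxl4, a further lysyl oxidase, rose (0.91 ± 0.25, adjusted p = 0.0122), but not without old 3 (0.57; adjusted p = 0.0515).

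Of 10 collagen receptor genes 6 fell and 2 rose, with a median of -0.50, or 4 and 3 with library totals alone. With TMM scaling 80% were called, against 54.2% of all genes, and 60% were lower, against 27.3% of all genes and 34.7% of protein-coding genes. The integrin subunit genes Itgb1 (-0.50 ± 0.07, adjusted p = 0.00025), Itga10 (-0.58 ± 0.11, adjusted p = 0.00128) and Itga2 (-0.52 ± 0.13, adjusted p = 0.00769) fell. Itga2 did not pass with library totals alone (-0.24, adjusted p = 0.153). On log2(FPKM + 1) neither Itga10 nor Itga2 passed (adjusted p = 0.072 and 0.312). Itga1 (0.31 ± 0.10, adjusted p = 0.0278) and the leukocyte receptor gene Lair1 (0.45 ± 0.16, adjusted p = 0.0377) rose. Itga1 missed the threshold without young 1, young 2, old 2 or old 3 in turn (adjusted p = 0.075, 0.103, 0.0582 and 0.109), and Lair1 without each library but old 1 (adjusted p from 0.0669 to 0.153).

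Genes of collagen breakdown and its inhibitors fell in 10 of 14 cases and none rose, with a median of -1.22. That is 71.4% lower, against 27.3% of all genes and 34.7% of protein-coding genes. With library totals alone 8 fell and 1 rose. The neutrophil collagenase gene Mmp8 fell from 15.0 ± 4.83 to 1.52 ± 0.534 CPM (-3.30 ± 0.29, adjusted p = 2.56e-05) and the gelatinase gene Mmp9 from 32.2 ± 4.19 to 4.95 ± 1.65 CPM (-2.70 ± 0.20, adjusted p = 1.51e-05). The inhibitor gene Timp1 fell too (-1.54 ± 0.54, adjusted p = 0.035), but not without young 1, young 2, young 3 or old 3 in turn (adjusted p = 0.0564, 0.0828, 0.0625 and 0.0582). With library totals alone it did not pass either (-1.26, adjusted p = 0.0785), and its value was -2.17 without old 2. Markers of macrophages and osteoclasts, a list that shares Mmp9 and Ctsk with this one, fell in 5 of 7 tested cases. That is 71.4% as well, and 4 fell with library totals alone. The summed level of these markers was 150 to 164 CPM in young and 87.5 to 108 CPM in old libraries. Their part in the result was not tested.

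Laminins and other partners of type IV in basement membranes numbered 19, of which 8 fell and 3 rose, with a median of -0.22. That is 57.9% called, against 54.2% of all genes, and 42.1% lower, against 27.3% of all genes and 34.7% of protein-coding genes. With library totals alone 3 fell and 6 rose. Lama1 (0.83 ± 0.19, adjusted p = 0.00395), Lama3 (0.76 ± 0.20, adjusted p = 0.00866) and Lama4 (0.37 ± 0.12, adjusted p = 0.0265), laminin α chain genes, rose. The call of Lama4 was lost without young 2 (adjusted p = 0.108), young 3 (adjusted p = 0.102) or old 2 (adjusted p = 0.123). Lama2 (-0.55 ± 0.08, adjusted p = 0.000328), of a further laminin α chain, and the peroxidasin gene Pxdn (-0.54 ± 0.14, adjusted p = 0.00772), whose product crosslinks type IV, fell. Pxdn did not pass with library totals alone (-0.27, adjusted p = 0.142). On log2(FPKM + 1) neither Lama2 nor Pxdn passed (adjusted p = 0.22 and 0.244). Of 5 tested genes of noncollagenous tectorial membrane proteins and their relatives, Otog rose (0.55 ± 0.14, adjusted p = 0.00716) and Otogl fell (-0.77 ± 0.16, adjusted p = 0.00297), or 3 rose and 1 fell with library totals alone.

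Some markers of cells that make collagen differed between the groups and between single libraries. Of 12 osteoblast and osteocyte markers 5 fell, none rose and 7 did not pass, and with library totals alone 5 fell and 2 rose. With TMM scaling 41.7% of these markers were called, all lower, against 54.2% of all genes called and 27.3% lower. Among protein-coding genes 34.7% were lower. Their summed level was 128, 141 and 183 CPM in young 1, 2 and 3 and 92.5 to 95.2 CPM in old libraries, and none was at 0. Bglap, the osteocalcin gene, had 5.66, 6.66 and 17.4 CPM in young 1, 2 and 3 and 0.450 to 0.503 CPM in old libraries (-4.36 ± 0.48, adjusted p = 7.18e-05, or -3.70 without young 3). Young 3 was thus highest for Bglap, for the osteoblast sum, for Col1a1 and for Col22a1, but not for Col1a2, Col3a1 or Col6a1. It was also the highest young library for the summed fibroblast, fibrocyte, strial and hair cell lists, and for the skeletal muscle list, which had 2.35, 8.60 and 21.1 CPM in young 1, 2 and 3. Phex, an osteocyte gene, had 16.4, 14.8 and 17.2 CPM in young 1, 2 and 3 and 5.05, 5.37 and 6.23 CPM in old 1, 2 and 3 (-1.54 ± 0.13, adjusted p = 2.55e-05). The part of bone cells in the falls of the type I chains was not tested.

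**Figure D5:**
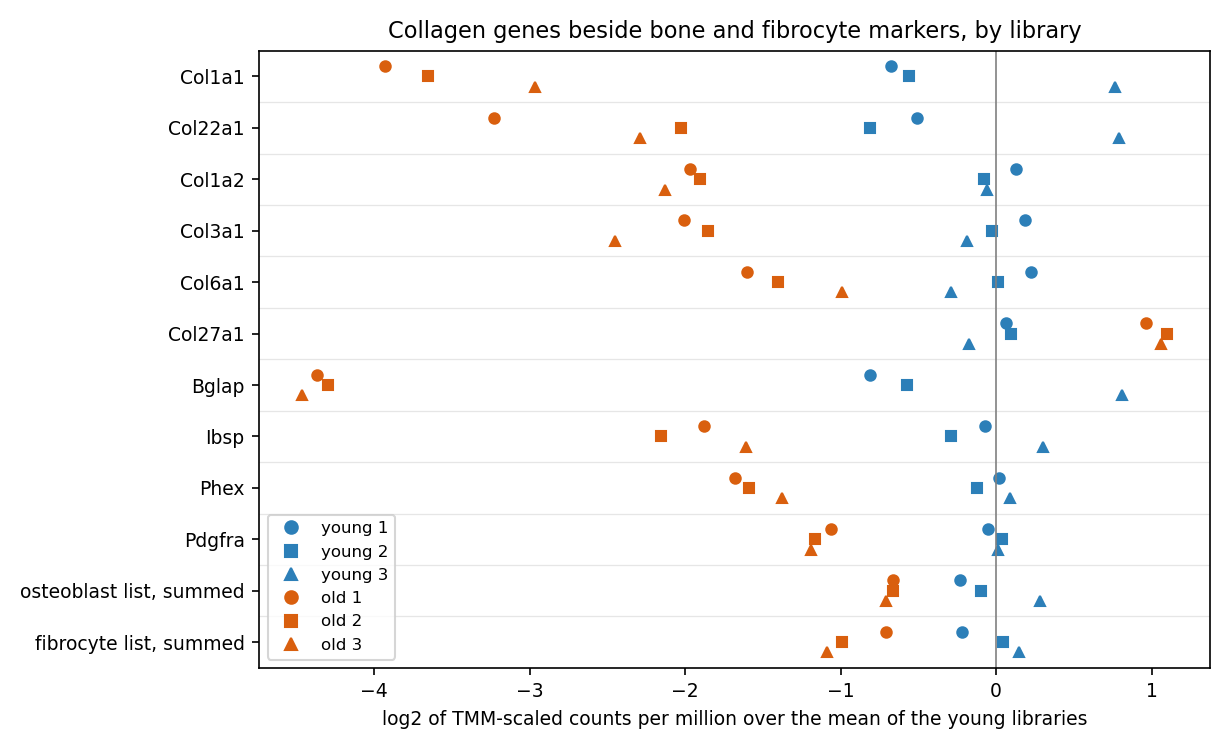
Log2 of TMM-scaled CPM over the mean of the young libraries (x axis) for 6 collagen genes, 4 marker genes and 2 summed marker lists, each point 1 library, marker shape by library number. Young 3 lies right of young 1 and 2 for Col1a1, Col22a1 and Bglap and left of young 1 for Col1a2, Col3a1 and Col6a1.

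Of all genes tested 54.2% were called, 27.3% lower and 26.9% higher, or 14.5% lower and 41% higher with library totals alone. Among protein-coding genes 34.7% were lower and 19.7% higher with TMM scaling. The called share was 75% of fibrocyte, 50% of fibroblast, 57.1% of cartilage, 57.1% of endothelial and mural and 50% of Schwann markers. It was 87.5% of strial, 100% of hair cell, 100% of neuron, 71.4% of supporting cell and 20% of muscle markers. Of 8 spiral ligament fibrocyte markers 6 fell and none rose, or 5 with library totals alone. Their sums were 9902 to 12820 CPM in young and 5439 to 7078 CPM in old libraries. Of 8 fibroblast and mesenchyme markers 3 fell and 1 rose (library totals alone: 2 fell, 2 rose), with sums of 470 to 563 and 337 to 392 CPM, and the receptor gene Pdgfra fell from 118 ± 3.68 to 53.4 ± 2.63 CPM (-1.14 ± 0.08, adjusted p = 1.18e-05). Of 7 tested cartilage markers 3 fell and 1, Sox9, rose (library totals alone: 2 fell, 1 rose), with sums of 764 to 1034 and 757 to 771 CPM. Beside the basement membrane genes, 3 of 7 endothelial and mural markers rose and 1 fell, or 5 and 0 with library totals alone (sums of 220 to 259 and 298 to 332 CPM), and 2 of 6 Schwann markers rose and 1 fell (sums of 2157 to 3658 and 2639 to 2774 CPM, highest in young 1). Young 1 was also the highest library for Col4a1 and Col4a2. Of strial markers 7 of 8 fell, or 6 with 1 that rose with library totals alone (sums of 7838 to 11060 and 4275 to 4843 CPM), of hair cell markers 7 of 7 fell, or 6 with library totals alone (148 to 227 and 90.3 to 98.9 CPM), and of neuron markers 6 of 6 rose (955 to 1419 and 2017 to 2380 CPM). Supporting cell markers rose in 2 and fell in 3 of 7 tested cases, or 3 and 2 with library totals alone (1625 to 1979 and 1583 to 1718 CPM), and 1 of 5 skeletal muscle markers fell (2.35 to 21.1 and 1.24 to 4.40 CPM). No listed marker was at 0 over all libraries. The part of these cell types in the collagen values was not tested.

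The sources used here do not say how reads of overlapping genes were assigned or whether strand was used. In the GENCODE annotation 563 of 9967 exonic bases of Col4a3 overlap the noncoding C430014B12Rik and 234 of 3853 exonic bases of Col9a3 overlap Tcfl5, each on the opposite strand. The other collagen genes share at most 162 exonic bases with a neighbour.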

How the data were processed

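Per the labels' protocols, RNA was isolated from basal cochlea with Trizol, DNA was digested and ribosomal RNA was removed. Reads were placed on GRCm38.p6, per the submitters' processing notes; the sources used here do not give the aligner, quantifier, annotation or strandedness. The authors deposited estimated counts per feature and library, not scaled, of which 20.2% of gene values are not whole, and FPKM values. Of 42623 entries 8228 are circular RNAs, which have no FPKM and were left out.

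After rounding, edgeR 4.0.16 (R 4.3.3) was run on the counts: filterByExpr by group, TMM scaling, quasi-likelihood F tests, Benjamini-Hochberg adjustment over 20157 genes, threshold 0.05. A value after ± is the SE of a log2 fold change, derived from its F statistic, or an SD over 3 libraries. CPM used TMM-scaled totals. Alternatives were other scalings, filters, DESeq2 1.42.0, limma-voom and limma-trend on FPKM (limma 3.58.1), a replicate block and each library left out. Tables were handled in pandas 2.3.3 and plots drawn in matplotlib 3.10.9 (Python 3.11.15). Sequences and gene positions are from RefSeq (GRCm38.p6).

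The members, the lists and the tests were chosen with earlier results of these data known. Genes of the family with a mean of at least 1 FPKM in either group are given with values. CPM is given for every library at 20 FPKM or more, or for calls of at least 1 on the log2 scale. Of each pathway list up to 3 genes per direction with the largest changes among those called at 1 FPKM or more are named, except that one item is not reported here. Markers, Col22a1, Col6a3 and Col7a1 were picked for the text after their values were seen. The pathway lists are modification and folding, cleavage and crosslinking, receptors, breakdown, basement membrane partners and tectorial membrane partners. Dcn, Lum, Otog, Otogl, Tectb, Mmp9 and Ctsk are in a pathway and a marker list.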

Additional observations from a re-analysis of the deposited data

How the results depend on the processing

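Of the 25 collagen calls, 15 kept direction and call in every setting run: Col1a1, Col1a2, Col2a1, Col3a1, Col4a3, Col4a4, Col6a1, Col6a2, Col8a1, Col9a2, Col11a1, Col16a1, Col19a1, Col25a1 and Col27a1. Of the other 10, the calls of Col8a2 and Col11a2 turned direction on the FPKM scale, and the cause was not tested. When each library was left out in turn, 3 to 8 collagen genes rose and 17 to 19 fell. In these fits 19.2% to 25.9% of all genes tested rose and 21.9% to 28.9% fell. Over all genes, 8259 rose and 2920 fell with library totals alone. On the FPKM scale the genes that fell numbered 2758 (log2(FPKM + 1)), 2792 (log2(FPKM + 0.1)) and 2499 (log2(FPKM + 1), no filter). The collagen share in young libraries was 0.328% without unnamed features, 0.346% without the 10 features with the most counts and 0.0385% of summed FPKM, and in old libraries it was 0.0700% of summed FPKM.

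Log2 values that changed sign belonged to genes near 0 or not called, other than Col8a2 and Col11a2. With library totals alone they were Col4a1 0.10, Col4a2 0.16, Col4a5 0.12, Col6a6 0.27, Col9a3 0.23, Col18a1 0.23, Col24a1 0.0458 and Col28a1 0.16. On log2(FPKM + 1), with or without the filter, they were Col4a1 0.14, Col4a2 0.24, Col4a5 0.22, Col6a6 0.0433, Col8a2 0.35, Col9a3 0.23, Col11a2 0.0199, Col12a1 0.049, Col18a1 0.12, Col24a1 0.18, Col26a1 0.25 and Col28a1 0.0614. On log2(FPKM + 0.1) they were 0.15, 0.26, 0.24, 0.23, 0.37, 0.24, 0.0200, 0.0755, 0.14, 0.26, 0.29 and 0.17 in the same order. With TMM factors from coding genes they were Col4a2 0.0257, Col6a6 0.13, Col9a3 0.0881, Col18a1 0.0852 and Col28a1 0.0181. With upper-quartile scaling they were Col6a6 0.0663, Col9a3 0.0304 and Col18a1 0.0282, and with a mean count of at least 50 they were Col9a3 0.00596 and Col18a1 0.00281. Col14a1 was at -0.0172 with no filter and -0.011 with DESeq2. When each library was left out in turn, the values ran from -0.30 to 0.0194 for Col4a1, -0.23 to 0.10 for Col4a2, -0.30 to 0.28 for Col6a6, -0.13 to 0.0296 for Col9a3, -0.10 to 0.0588 for Col14a1 and -0.16 to 0.0253 for Col18a1.

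Same-numbered young and old libraries had correlations of -0.082, 0.026 and -0.057 of their deviations from the group means, and not every library correlated best with its own number, so the numbers were not taken as pairs. With the replicate number as a block, 6 collagen genes rose and 18 fell, and 4860 and 5079 genes did so over all. Gene totals were higher in young than in old libraries, and 3 libraries per group limit what low-count genes such as Col6a6 and Col28a1 can show.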
